A study of Mus musculus with 4 samples.

Results

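The 7 genes described here, Bdh1, Acat1, Pdk4, Pdk2, Vnn1, Vnn3 and Creb3l3, belong to ketone body synthesis and to the hepatic response to fasting. They were taken by their GENCODE M21 symbols, 1 Ensembl identifier each, from the 37315 gene identifiers in the count files. All 7 had enough reads to be tested among 13836 genes. RNA-seq counts were compared between livers of mice labelled Fto knockout (KO, 2 libraries) and of wild-type mice (WT, 2 libraries), all of strain C57BL/6 and 23 weeks old. Fto is an RNA demethylase, with N6-methyladenosine among its substrates. The labels give neither the knockout allele, nor whether the gene was lost in all tissues, nor the feeding state at sampling. Since they do not tie each library to an animal of its own, the p-values reflect only how far these libraries scatter, possibly for technical reasons.

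During fasting, fatty acids released from fat are oxidised in liver mitochondria, and part of the acetyl-CoA is turned into ketone bodies. Acat1 acts at the start of this pathway and Bdh1 at its end. Pyruvate dehydrogenase kinases such as Pdk4 and Pdk2 hold back the oxidation of glucose carbon, and the nuclear receptor PPARα and the liver transcription factor CREBH (Creb3l3) drive many of the genes involved. Vnn1 and Vnn3 encode vanins, ectoenzymes that split pantetheine, a product of coenzyme A breakdown, into pantothenate and cysteamine. Vnn1 is a known target of PPARα in liver.

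Vnn1 and Vnn3 lie next to each other on the plus strand of chromosome 10 (mm10), Vnn3 (ENSMUSG00000020010) at 23851462 to 23869843 and Vnn1 (ENSMUSG00000037440) at 23894688 to 23905343, 24845 bases apart. Their coding sequences were 66.2% identical over 1472 aligned bases. The longest identical run of their longest transcripts was 12 bases, so between these transcripts no read of 101 bases could match both perfectly. That run and its flanks, which show how far the neighbouring genes have diverged, lie in exon 4 of 7 in both (chr10:23899610-23899661 in Vnn1 and chr10:23864554-23864605 in Vnn3, mm10, plus strand, 5′ to 3′, GENCODE M21 transcripts). The shared run is in capitals, and 34 of the 52 positions were identical.
Vnn1: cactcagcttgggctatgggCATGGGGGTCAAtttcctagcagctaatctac
Vnn3: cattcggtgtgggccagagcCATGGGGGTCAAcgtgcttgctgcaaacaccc

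The libraries held 44689114 and 40947808 counts in KO and 41332870 and 39549592 in WT, so that 1 read stood for 0.0216 to 0.0263 CPM, the read count scaled to library size after TMM normalisation. Fto had 607 and 486 reads in the KO libraries, against 1749 and 1292 in the WT libraries. On the log2 scale it fell by 1.57 (SE 0.195, adjusted p = 0.0109). This and every adjusted p below, unless another tool is named, is from edgeR's quasi-likelihood test with Benjamini-Hochberg adjustment over all tested genes. The 7 measured hepatocyte markers summed to 90369 and 100284 CPM in KO and to 81651 and 92066 CPM in WT. The 11 markers of Kupffer cells, the liver's macrophages, summed to 352 and 378 CPM in KO and to 162 and 243 CPM in WT. All 11 had a positive log2 fold change, while 49.2% of all tested genes had a negative one. At an adjusted p under 0.05, 2 of the 11 were called higher, against 0.961% of all tested genes. Of the 9 neutrophil markers Ly6g and Camp had no read, and the list summed to 2.37 to 3.29 CPM in KO and 1.63 to 2.08 CPM in WT. Of the 5 kidney tubule markers, Slc12a1, Aqp2 and Kap had no read, and the list summed to 0.0649 and 0 CPM in KO and to 0 CPM in both WT libraries. Of the 6 skeletal muscle markers Tnnc2 had no read, and their sum was 0.779 and 1.27 CPM in KO and 0.849 and 0.736 CPM in WT. The 5 cholangiocyte markers summed to 6.47 and 4.27 CPM in KO and to 6.06 and 3.70 CPM in WT, and the 6 endothelial markers to 107 and 90.8 CPM in KO and to 81.9 and 116 CPM in WT. The 7 adipocyte markers summed to 9.13 and 31.6 CPM in KO and to 35.1 and 84.7 CPM in WT. Without Cidec, which is also on lists of pathway genes below, they summed to 3.33 and 18.1 CPM in KO. In WT that sum was 7.95 and 26.4 CPM. In such bulk tissue, fewer cells of a type and less RNA per cell cannot be told apart.

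Vnn1, the pantetheinase gene, was lower in KO liver and was the only one of the 7 genes that passed the test. It had 54.1 and 81.0 CPM in the KO libraries, against 168 and 216 CPM in the WT libraries. Both KO libraries lay below both WT libraries, with 2502 and 3240 reads in KO and 7123 and 8219 in WT. Its mean was 67.5 ± 19.0 CPM in KO and 192 ± 33.9 CPM in WT (SD, n = 2 each). The log2 fold change was -1.51 (SE 0.245, 95% interval -2.08 to -0.94, adjusted p = 0.0263), which put the KO level at 35.2% of WT. Calls were made at 0.05 on the adjusted p, which 0.947% of the 13836 tested genes passed as lower in KO, 0.961% as higher and 1.91% in either direction.

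Vnn3, the neighbouring vanin gene, had the same sign but did not pass. It had 55.5 and 63.8 CPM in KO, against 76.5 and 86.0 CPM in WT, so the groups did not overlap. Its log2 fold change of -0.45 (SE 0.182, 95% interval -0.87 to -0.02) had an unadjusted p of 0.0415, as edgeR gave it, and did not pass after adjustment (adjusted p = 0.357). Within a library the balance of the neighbours can be read without any scaling: there were 0.975 and 1.27 Vnn1 reads per Vnn3 read in KO, against 2.19 and 2.51 in WT. The ratio in KO was 0.474 of that in WT. Its difference reached the smallest p that 2 libraries against 2 allow (two-sided exact permutation test on log2 ratios, p = 0.333), which cannot pass 0.05. The tested genes on the outer sides of the pair did not pass. The vesicular transporter gene Slc18b1, 23494 bases before Vnn3, had a log2 fold change of -0.35 (adjusted p = 0.690). The syntaxin gene Stx7, 243959 bases beyond Vnn1, had one of -0.06 (adjusted p = 0.967). The nearest tested neighbours of the other 5 genes were not called either.

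**Figure D1:**
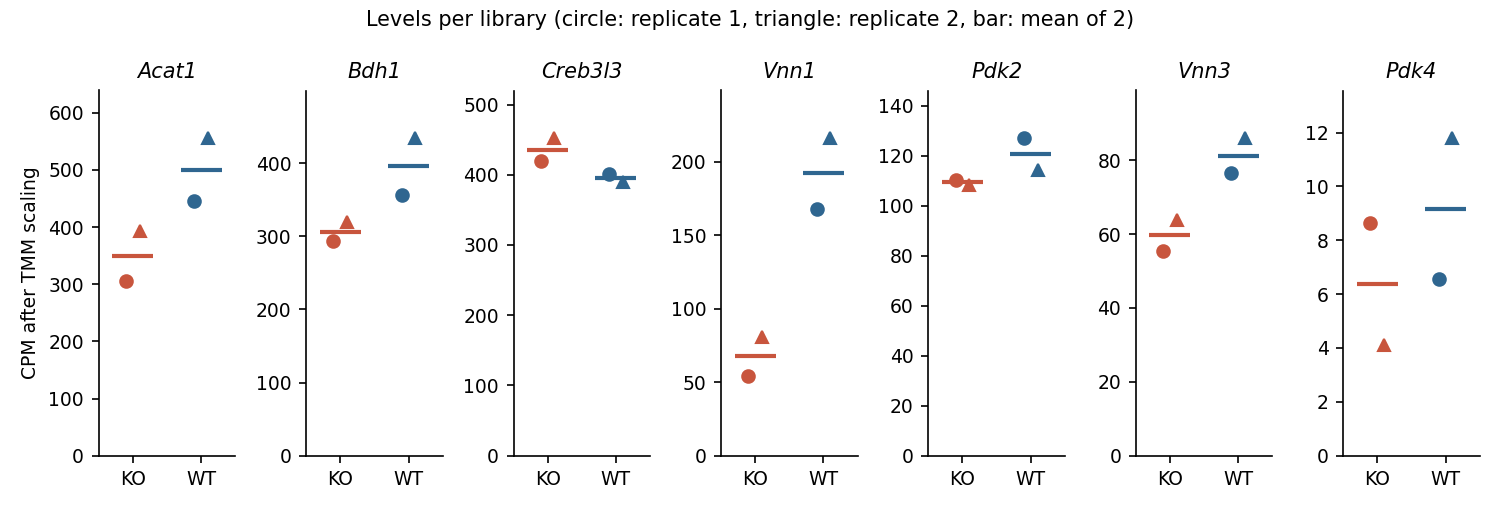
CPM after TMM scaling (y axis, from 0, scaled per gene) of the 7 genes in the KO and WT libraries (x axis); circles are replicate 1, triangles replicate 2 and bars the mean of 2. Vnn1 lies at 54.1 and 81.0 CPM in KO and at 168 and 216 CPM in WT, while the KO and WT points of Pdk4 interleave.

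The genes of ketone body synthesis, Acat1 and Bdh1, had lower means in KO but did not pass. Acat1 (ENSMUSG00000032047, chr9:53580522-53610382, minus strand), the mitochondrial thiolase that joins acetyl-CoA units into acetoacetyl-CoA at the start of the pathway, had 306 and 393 CPM in KO, against 446 and 556 CPM in WT. The mean of Acat1 was 349 ± 61.6 CPM in KO and 501 ± 77.8 CPM in WT (SD, n = 2 each). It differed by -0.52 on the log2 scale (SE 0.204, 95% interval -0.99 to -0.04, adjusted p = 0.336). Bdh1 (ENSMUSG00000046598, chr16:31422280-31458901, plus strand), which converts acetoacetate and β-hydroxybutyrate into each other, had 293 and 320.1 CPM in KO, against 357 and 434 CPM in WT. Its log2 fold change was -0.37 (SE 0.181, 95% interval -0.79 to 0.05, adjusted p = 0.458). For both genes the KO libraries lay below the WT libraries without overlap, a pattern shown by 20.4% of all tested genes in that direction. Bdh1 had 0.958 and 0.815 reads per Acat1 read in KO, against 0.801 and 0.782 in WT (two-sided exact permutation test on log2 ratios, p = 0.333, the smallest possible).

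The pyruvate dehydrogenase kinases were not called, and their spread between libraries differed. Pdk4 (ENSMUSG00000019577, chr6:5483351-5496309, minus strand), the isoform best known for its induction by fasting, had 8.65 and 4.12 CPM in KO, against 6.56 and 11.8 CPM in WT (400 and 165 reads in KO, 278 and 449 in WT). The groups overlapped: KO replicate 1 lay above WT replicate 1, with KO replicate 2 the lowest and WT replicate 2 the highest of all. Its log2 fold change was -0.52 (SE 0.397, 95% interval -1.44 to 0.41, adjusted p = 0.678). The value varied with single libraries. It was -1.15 without KO replicate 1, the only setting of those run in which Pdk4 was called (adjusted p = 0.0445). It was -0.09 once KO replicate 2 was left out, -0.88 once WT replicate 1 was and -0.05 once WT replicate 2 was. Pdk2 (ENSMUSG00000038967, chr11:95026258-95041354, minus strand), the kinase isoform with high constitutive expression in liver, was steadier, with 110.2 and 108 CPM in KO, against 127 and 114 CPM in WT. Its log2 fold change was -0.14 (SE 0.170, 95% interval -0.54 to 0.25, adjusted p = 0.814). There were 0.0785 and 0.0381 Pdk4 reads per Pdk2 read in KO, against 0.0516 and 0.103 in WT, and these ranges also overlapped.

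**Figure D2:**
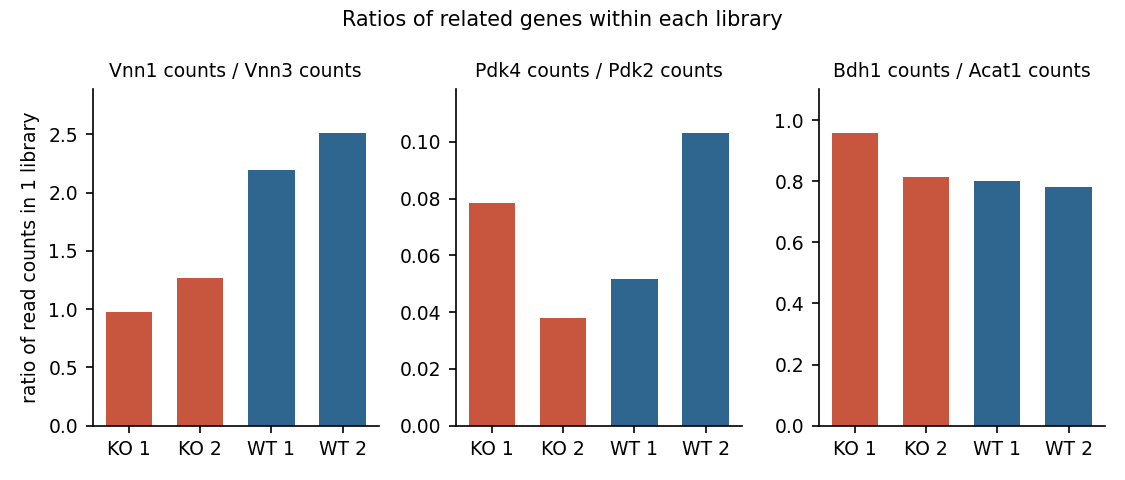
Ratio of read counts of related genes within each library (y axis, from 0), for KO replicates 1 and 2 and WT replicates 1 and 2 (x axis). The Vnn1 to Vnn3 ratio is 0.975 and 1.27 in KO and 2.19 and 2.51 in WT, the Pdk4 to Pdk2 ratios of the genotypes overlap, and the Bdh1 to Acat1 ratio stays between 0.782 and 0.958.

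Creb3l3 (ENSMUSG00000035041, chr10:81084324-81098874, minus strand), which encodes the membrane-bound factor CREBH that is cut free in the Golgi and moves to the nucleus, was the only one of the 7 with a positive log2 fold change, and it did not pass. It had 419.6 and 452 CPM in KO, against 401 and 390.0 CPM in WT. The log2 fold change was 0.14 (SE 0.165, 95% interval -0.24 to 0.52, adjusted p = 0.813). The KO libraries lay just above the WT libraries without overlap, as they did for 21.6% of all tested genes; groups apart in either direction made up 42.0%.

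Across the set, 1 gene was called lower by edgeR (against 0.947% of all tested genes) and none higher, and 3 had an unadjusted p under 0.05 (against 13.0%). KO libraries lay below both WT libraries for 5 of the 7 (against 20.4%) and above both for 1 (against 21.6%). DESeq2 and limma-voom likewise called 0 of the 7 higher, and Vnn1 was the only call of each. The median log2 fold change of the 7 was -0.45, beside 0.0058 over all tested genes. The 7 were chosen with earlier results of these data known, so these counts describe them and do not test the set. Vnn1 was called under all 13 other settings tried, with log2 fold changes between -1.83 and -1.24 when 1 library was left out and an adjusted p of at most 0.0417. Its longest transcript has 2416 bases, and with the trend of each library on transcript length removed its log2 fold change was -1.49 (adjusted p = 0.00994). That trend separated the libraries by replicate number: among protein-coding genes with transcripts over 8000 bases, replicate 2 differed from replicate 1 by a median of -0.44 on the log2 scale in KO and -0.48 in WT. In the class of 2000 to 4000 bases, which holds Vnn1, these medians were 0.06 in KO and 0.08 in WT, and Vnn1 itself was higher in replicate 2 by 0.58 in KO and 0.36 in WT. The median log2 fold change of KO over WT also rose with length, from -0.103 under 1000 bases to 0.105 over 8000 bases. In the class of Vnn1 it was -1.1e-04. The Kupffer cell markers had the sign opposite to that of Vnn1, with a median log2 fold change of 0.93, and their part in the result was not tested.

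**Figure D3:**
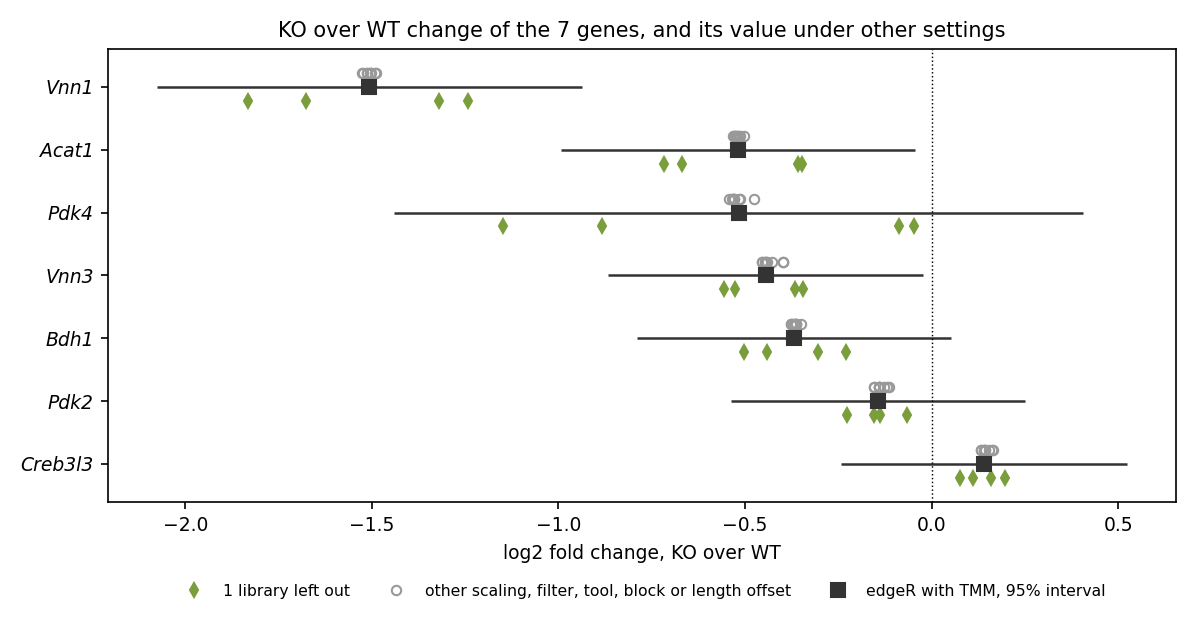
Log2 fold change of KO over WT (x axis) for each of the 7 genes (rows); squares are the edgeR estimates with their 95% intervals, diamonds the values with 1 library left out, and open circles the values with another scaling, filter, tool, replicate block or length offset. Vnn1 stays between -1.83 and -1.24, and Pdk4 spreads from -1.15 to -0.05 when libraries are left out.

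Levels can be set beside each other between genes only per length, here as CPM per kilobase of merged exons. The orders given hold for that length only. The merged exons of Creb3l3 have 3016 bases and its longest transcript 2294, and those of Pdk2 3163 and 2246. For Vnn1 and Vnn3 both lengths are the same. Levels per longest transcript were not computed. In KO the order was Creb3l3 with 145 ± 7.64, Acat1 with 92.9 ± 16.4, Bdh1 with 78.8 ± 4.94, Pdk2 with 34.5 ± 0.447, Vnn3 with 33.0 ± 3.25, Vnn1 with 28.0 ± 7.86 and Pdk4 with 1.82 ± 0.912 CPM per kilobase (SD, n = 2 each). There the ranges of Acat1 and Bdh1, of Pdk2 and Vnn3, and of Vnn3 and Vnn1 overlapped. In WT the order was Acat1 with 133 ± 20.7, Creb3l3 with 131 ± 2.57, Bdh1 with 102 ± 14.0, Vnn1 with 79.4 ± 14.0, Vnn3 with 44.9 ± 3.68, Pdk2 with 38.2 ± 2.82 and Pdk4 with 2.61 ± 1.06 CPM per kilobase (SD, n = 2 each), and only the ranges of the neighbours Acat1 and Creb3l3 overlapped. The ranges of Vnn1 and Vnn3 per kilobase thus overlapped in KO, whereas in WT both Vnn1 values lay above those of Vnn3 and Pdk2. No other gene of the count files overlaps 5 of the 7; the antisense genes Gm15743 at Bdh1 and Gm11513 at Pdk2 had at most 10 and 4 reads in a library.

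The pattern of Vnn1 over the 4 libraries was most like those of Calr3, Pltp and Scd1. Likeness was the root mean square difference of log2 CPM, each gene centred on its own mean. It was 0.07 for Calr3, a calreticulin, 0.08 for Pltp, the plasma phospholipid transfer protein, and 0.09 for Scd1, the stearoyl-CoA desaturase. These were the smallest values among 10168 other genes that code for protein and averaged 2 CPM or more. Scd1 had 2772 and 4287 CPM in KO, against 9433 and 12939 CPM in WT, and was called lower (log2 fold change -1.66, adjusted p = 0.0245). Pltp (-1.36, adjusted p = 0.0533) and Calr3 (-1.40, adjusted p = 0.0748) did not pass. Under the 13 other settings Pltp was called in 10 and Calr3 in 7. The likeness is a description over 4 libraries, and genes found this way share the genotype difference by construction.

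Among other genes of ketone body synthesis, use and export, 1 of 12 tested was lower and none higher by edgeR. Of all tested genes, 0.947% were called lower and 0.961% higher. DESeq2 and limma-voom called 0 higher, and the median log2 fold change was -0.25. The unadjusted p was under 0.05 for 2 with a negative and 1 with a positive log2 fold change, against 13.0% of all tested genes. The gene that fell was Slc16a7, a monocarboxylate transporter, with 27.0 and 25.8 CPM in KO, against 47.2 and 55.2 CPM in WT (log2 fold change -0.96, adjusted p = 0.0478). Its call was lost without KO replicate 1 (adjusted p = 0.0601), without KO replicate 2 (0.0918), without WT replicate 2 (0.0634), with library size alone (0.0734) and with the length offset (0.0780). Fgf21, the fasting hormone of liver, had a positive log2 fold change, with 5.88 and 3.90 CPM in KO, against 2.08 and 2.94 CPM in WT (log2 fold change 0.97, adjusted p = 0.223). It was called without KO replicate 2 (log2 fold change 1.22, adjusted p = 0.0309) and with no filter on low counts (adjusted p = 0.0349). The list's other measured gene was too low to test. The paralogs Acat2 and Bdh2 had log2 fold changes of -0.33 and 0.08 and did not pass.

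Of the 11 tested genes of the pyruvate dehydrogenase complex and its control, none was called by edgeR in either direction. The median log2 fold change was -0.19. An unadjusted p under 0.05 was found for 1 gene, against 13.0% of all tested genes. That gene was Pdk1, another kinase isoform, with 76.3 and 74.4 CPM in KO, against 127 and 146 CPM in WT (log2 fold change -0.86, SE 0.174, adjusted p = 0.0588). Limma-voom also called 0 of the 11, whereas DESeq2 called Pdk1 (adjusted p = 0.00356), as did edgeR with the length offset (0.0303), with no filter on low counts (0.00267) and without WT replicate 1 (0.0187). The enzyme subunit genes Dlat (log2 fold change -0.39, adjusted p = 0.502) and Pdha1 (-0.34, adjusted p = 0.521) and the mitochondrial pyruvate carrier gene Mpc1 (-0.38, adjusted p = 0.555) did not pass, and Pdk3 had 4 and 6 reads in KO and 2 and 11 in WT. Pdk1 shared an identical run of at most 19 bases with Pdk2 and of at most 17 with Pdk4.

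Of the 14 tested genes of pantetheine and coenzyme A metabolism, none was called by edgeR, and the median log2 fold change was -0.03. An unadjusted p under 0.05 was found for 3, against 13.0% of all tested genes. Nudt7, a peroxisomal enzyme that breaks coenzyme A down towards phosphopantetheine, had 700 and 893 CPM in KO, against 333 and 460.1 CPM in WT (log2 fold change 1.01, SE 0.223, adjusted p = 0.0765). Nudt7 was the 1 gene that DESeq2 called (adjusted p = 0.00316), limma-voom called 0, and edgeR called it with the length offset (0.0444), with no filter on low counts (1.10e-04), without KO replicate 1 (0.00237) and without WT replicate 2 (0.00330). The synthesis gene Ppcdc (-0.63, adjusted p = 0.178), the ectoenzyme gene Enpp3 (-0.48, adjusted p = 0.282) and Acp6 (-0.25, adjusted p = 0.665) did not pass.

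The list related to Creb3l3 holds its family members, site-1 and site-2 proteases, quality-control factors of the endoplasmic reticulum, a stress sensor and a kinase. Of the 9 tested, edgeR called none, as did DESeq2 and limma-voom. An unadjusted p under 0.05 was found for 1, the ubiquitin ligase gene Syvn1 (log2 fold change 0.43, adjusted p = 0.331), against 13.0% of all tested genes. Mbtps1, the site-1 protease, had 0.27 (adjusted p = 0.603) and the stress sensor gene Atf6 0.29 (adjusted p = 0.687). Creb3, Creb3l1 and Creb3l2 had log2 fold changes of 0.11, 0.25 and 0.12, each smaller than its SE and each with either sign when single libraries were left out, and Creb3l4 was too low to test. Of 12 tested genes reported as CREBH targets 1 was lower and none higher by edgeR, against 0.947% and 0.961% of all tested genes. Their median was -0.36 (DESeq2 and limma-voom also called 0 higher). Of the 12, 5 with a negative and 2 with a positive log2 fold change had an unadjusted p under 0.05, against 13.0% of all tested genes. The lower gene was Insig2, which retains the sterol sensor in the endoplasmic reticulum, with 108 and 134 CPM in KO, against 236 and 269.6 CPM in WT. Its log2 fold change was -1.06 (adjusted p = 0.0392), and leaving out KO replicate 1 ended the call (adjusted p = 0.0882). The lipid droplet gene Cidec had 5.80 and 13.5 CPM in KO, against 27.2 and 58.3 CPM in WT (log2 fold change -2.15, SE 0.465, adjusted p = 0.0711). Cidec was called with no filter on low counts (adjusted p = 8.04e-05) and whenever 1 library was left out, at log2 fold changes between -2.89 and -1.50. Cidec is also on the adipocyte marker list. The other 6 genes of that list summed to 3.33 and 18.1 CPM in KO and to 7.95 and 26.4 CPM in WT. The log2 fold change was negative in 4 of the 5 tested. It was smaller than its SE for Adipoq (-0.08, SE 1.69), Lep (-0.27, SE 1.65) and Fabp4 (-0.51, SE 0.763), but not for Cfd (-1.44, SE 0.733). Reads of Adipoq differed by replicate number, with 0 and 71 in KO and 1 and 70 in WT. So did those of Lep, with 0 and 36 in KO and 0 and 41 in WT. The part of adipose tissue in the value of Cidec was not tested. Hamp2, 1 of the hepcidin genes on the list, had -0.85 (adjusted p = 0.141). It was called under 6 of the 13 other settings, among them DESeq2 (adjusted p = 0.0293) and no filter on low counts. With 1 library left out its log2 fold change lay between -1.19 and -0.58. The other hepcidin gene, Hamp, had 188 and 287 CPM in KO, against 275 and 228 CPM in WT (log2 fold change -0.08, adjusted p = 0.945).

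Of the 25 tested PPARα targets induced by fasting, 2 were lower and none higher by edgeR, against 0.947% and 0.961% of all tested genes. Their median log2 fold change was -0.35 (DESeq2 and limma-voom also called 0 higher). An unadjusted p under 0.05 was found for 10 with a negative and 1 with a positive log2 fold change, against 13.0% of all tested genes in either direction. The fatty acid transporter Cd36 fell by 2.25 on the log2 scale (31.3 and 33.1 CPM in KO, against 132 and 175 CPM in WT, adjusted p = 0.00323), and the thioesterase Acot2 fell by 1.29 (adjusted p = 0.0478, but 0.103 with library size alone and 0.0512 without KO replicate 2). Cyp4a10, a fatty acid hydroxylase, had -1.39 (adjusted p = 0.0890). It was called by DESeq2, with no filter on low counts, and without KO replicate 2, WT replicate 1 or WT replicate 2. Of 21 tested regulators of the fasting response, edgeR called none, nor did DESeq2 or limma-voom, and their median was 0.11. An unadjusted p under 0.05 was found for 1 of the 21, against 13.0% of all tested genes. That was the coactivator gene Ppargc1a, with 4.97 and 6.05 CPM in KO, against 8.30 and 9.54 CPM in WT (log2 fold change -0.69, adjusted p = 0.219). The receptor gene Hnf4a (0.31, adjusted p = 0.515), the lipin gene Lpin1 (0.46, adjusted p = 0.574) and the lysosomal regulator gene Tfeb (0.27, adjusted p = 0.644) did not pass. Of 10 tested genes of gluconeogenesis, 1 was lower and none higher by edgeR, against 0.947% and 0.961% of all tested genes. Their median was -0.25. DESeq2 and limma-voom called 0 higher as well. There were 4 genes with a negative and 0 with a positive log2 fold change at an unadjusted p under 0.05, beside 13.0% of all tested genes. Gpt2, the mitochondrial alanine transaminase, fell by 1.02 on the log2 scale (293 and 344 CPM in KO, against 619 and 670.2 CPM in WT, adjusted p = 0.0347); its adjusted p was 0.0815 once KO replicate 1 was left out. G6pc (-0.57, adjusted p = 0.249), Pcx (-0.49, adjusted p = 0.293) and Sds (-0.59, adjusted p = 0.357), which encode glucose-6-phosphatase, pyruvate carboxylase and serine dehydratase, did not pass.

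Over the 108 tested genes of these 8 lists, some of which share genes, 5 were lower and none higher, 4.63% against 1.91% of all tested genes. DESeq2 called 9 of them lower and 1 higher, beside 291 lower and 283 higher over all genes. Limma-voom called 5 lower and 0 higher, beside 126 lower and 132 higher over all genes. By edgeR, 27 of the 108 had an unadjusted p under 0.05 (25%, beside 13.0% of all tested genes), 23 with a negative and 4 with a positive log2 fold change. These counts describe lists that were chosen with earlier results of these data known.

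**Figure D4:**
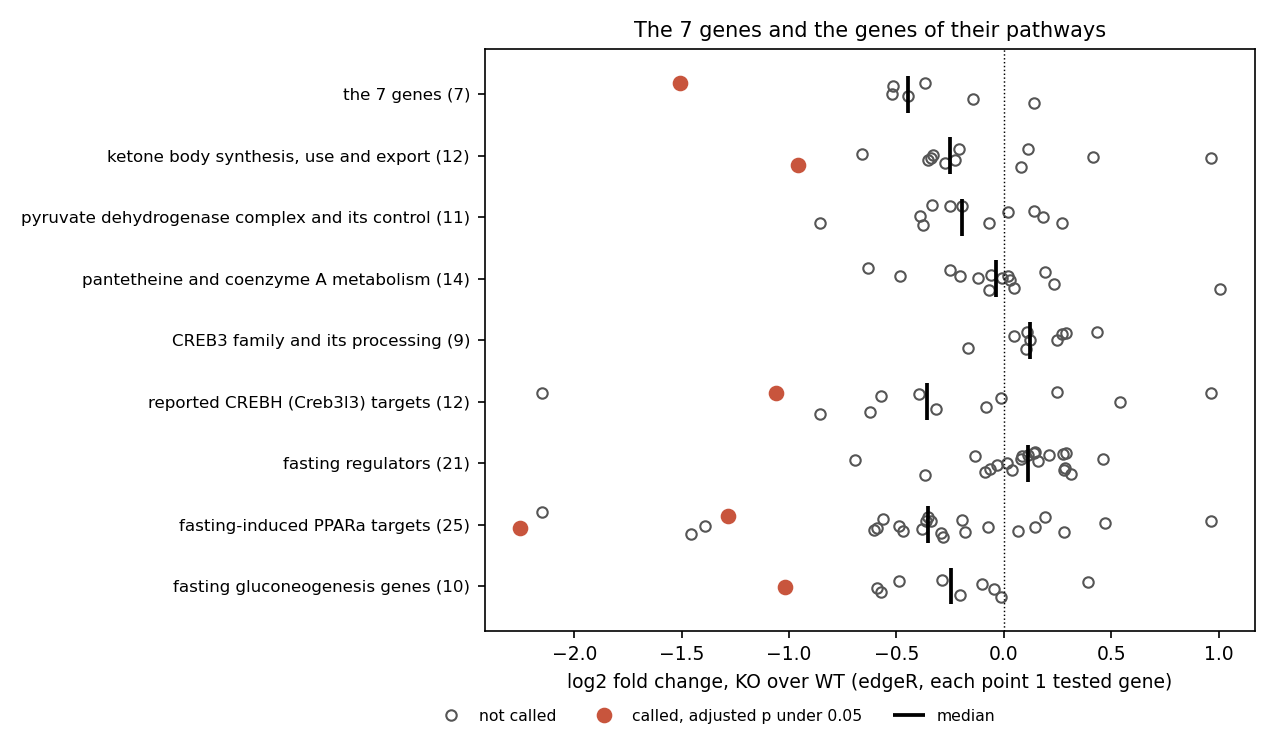
Log2 fold change of KO over WT (x axis) of the 7 genes and of the tested genes of each related list (rows, number of genes in brackets); filled points were called at an adjusted p under 0.05, open points were not, and the bar is the list's median. The medians run from -0.45 for the 7 genes to 0.12 for the CREB3 family, and the called points all lie below 0.

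The transcripts were also searched for GGACT, a form of the consensus around N6-methyladenosine, on the transcript strand of the longest protein-coding transcript. Vnn1 held 5 matches in 2416 bases (2.07 per kilobase) and Vnn3 2 in 1811 (1.10 per kilobase). Acat1 held 7, Bdh1 5, Pdk2 5, Pdk4 3 and Creb3l3 3. Over 12749 tested protein-coding genes the median was 1.05 per kilobase, with quartiles of 0.649 and 1.53, and 92.9% held at least 1. The density was 2.23 per kilobase in Pdk2, 2.06 in Acat1, 1.60 in Bdh1, 1.31 in Creb3l3 and 0.861 in Pdk4. The coding matches of the vanin genes are shown with 8 bases on each side and the match in capitals (mm10, plus strand, 5′ to 3′). They lie at chr10:23900694-23900714 and chr10:23904556-23904576 in exons 5 and 7 of Vnn1, and at chr10:23865764-23865784 and chr10:23865955-23865975 in exon 5 of Vnn3.
Vnn1, exon 5: ggtgaactGGACTtcctatgc
Vnn1, exon 7: tatgggaaGGACTgggcatcc
Vnn3, first in exon 5: ttatgccaGGACTgtgaagcc
Vnn3, second in exon 5: cctttgatGGACTccatacag
Methylation was not measured here, and a match is only a run of letters.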

How the data were processed

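The deposited files hold raw read counts per Ensembl gene, 1 file per library, for polyadenylated liver RNA read as pairs of 101 bases. Per the submitters' processing notes, the build was mm10 and the tools included TopHat2 2.1.1 (aligner) and HTSeq 0.6.0 (counter); which annotation and settings they ran with is not given in the sources used here. The TruSeq kit version named in the labels' protocols does not mark strand, so antisense reads cannot be told apart.

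From these counts, genes were filtered (filterByExpr, minimum count 10, minimum total 15), scaled with TMM and tested with edgeR 4.0.16 in R 4.3.3 by the robust two-sided quasi-likelihood F test of KO against WT, genotype being the only term. P-values were adjusted over all 13836 tested genes. Each SE was taken as |log2 fold change| / √F, and intervals are at 95%. The code was tested on simulated data. DESeq2 1.42.0, limma 3.58.1 and other settings were alternatives. Symbols, positions and lengths are from GENCODE M21, and 35533 identifiers matched. Coding sequences were aligned with Biopython 1.88. No 2 libraries agreed within sampling noise (chi-square per degree of freedom of at least 86.5).

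Members and gene lists were chosen with earlier results of these data known. The genes named are the 7, Fto, in each list every called gene and up to 4 with the smallest p, the 3 with the pattern nearest to a called member, neighbours and paralogs. Some marker genes and Hamp are named as well. Tf, Nudt8 and Kiss1, listed as marker or pathway genes, were not analysed here. Some genes of the lists that this rule would name are not reported here, though they stay in the counts and medians.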

Additional observations from a re-analysis of the deposited data

How the results depend on the processing

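All 7 genes kept their sign under the 13 other settings, and Vnn1 its call. Of 13836 genes 264 were called, against 829 with no filter on low counts, 574 with DESeq2, 453 with the length offset, 176 with library size alone, and 460 to 633 with 1 library left out. Of the 7, between 1 and 2 were called with 1 library left out. Of the listed pathway genes 5 were called, against 3 with library size alone, 13 with no filter, 10 with DESeq2 and 5 to 12 with 1 library left out. Signs changed only with libraries left out, for Bdh2 (-0.083 to 0.25), Creb3 (-0.20 to 0.36), Creb3l1 (-0.17 to 0.80) and Creb3l2 (-0.10 to 0.35); the cause was not tested. The replicate numbers are shared by the genotypes, but the labels do not say that they pair animals, and with 2 numbers the correlation of deviations (0.427) cannot decide it. A replicate block gave 2729 called genes, 4 of the 7 (Acat1, Bdh1 and Vnn3 beside Vnn1, all lower) and 48 pathway genes; with the length offset as well these counts were 2656, 4 and 45. Leaving out 1 library leaves 1 in its group, which is then assumed to vary like the others. The lowest of the 7 genes, Pdk4, had at least 165 reads in a library, and the part of depth was not tested. With 2 libraries per genotype the precision is limited.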
